A study of Arabidopsis thaliana with 18 samples.

Results

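The xyloglucan endotransglucosylase/hydrolase family (XTH1 to XTH33) was followed through germination in seeds of *Arabidopsis thaliana*. Its 33 genes were taken by their gene identifiers, and the 44 transcripts they hold, of 48268 in the table, were summed to genes, so that the family is 33 of 27587 genes. Messenger RNA of entire seeds was sequenced in 6 groups of 3 biological replicates, 18 libraries in all. The libraries labelled ros1-4 come from a T-DNA insertion line in ROS1, a DNA glycosylase that removes methylated cytosines, in the Col-0 background, and those labelled Col-0 from the wild type. Each genotype was sampled as mature dry seed, at germination stage II (seed coat rupture with the radicle tip showing) and at stage IV (a radicle of 0.5 mm). All seeds came from mother plants kept at 23 °C while the seeds formed. RNA of dry seeds was taken from lots of 100, and seeds of stages II and IV had been imbibed at 20 °C in the light.

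Xyloglucan is the main hemicellulose of primary walls in dicots and lies on and between cellulose microfibrils. An XTH enzyme cuts a xyloglucan chain and rejoins the end to another chain, which lets a wall yield or be rebuilt while a cell expands, and a few members only hydrolyse. In the family tree XTH1 to XTH11 are group I, XTH12 to XTH26 group II, XTH31 and XTH32 group IIIA, which holds the hydrolases, and XTH27 to XTH30 with XTH33 group IIIB. In a germinating seed the embryo axis elongates and the endosperm cap ahead of the radicle weakens, and wall remodelling takes part in both.

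The active site of these enzymes is a short stretch with 2 glutamates, the nucleophile and the general acid/base. The coding bases of that stretch, read from the RefSeq annotation of TAIR10.1, are shown for members on which the results turn, with each glutamate codon at these positions in capitals.
XTH25: tgggacGAAatcgatttcGAGtttcttggt
XTH12: tgggatGAGattgatttcGAGttcttgggt
XTH13: tgggatGAAatcgacttcGAGttcttgggt
XTH14: tgggatGAGattgacttcGAGtttttggga
XTH26: cacgatGAGatagacttcGAGttcctagga
XTH7: cgagacGAGcttgattttGAGttcttagga
XTH19: tgggatGAGattgatttcGAGtttttgggg
XTH31: cacgatGAGgtcgatatcGAGtttctaggg
XTH16: cacgacGAGatagactttGAGtttcttggt
XTH11: catgatGAGctctgtttccagatcttggga
The stretch of 30 bases was found in 33 of 33 members, and both codons were present in 32. XTH11 was the exception, with a glutamate codon at the nucleophile position alone. The search pattern required glutamate at the nucleophile position and allowed glutamate or glutamine at the other, so the former was set by the search. XTH12 and XTH13 differed at 3 of the 30 bases, XTH12 and XTH14 at 3, XTH25 and XTH13 at 5, and XTH25 and XTH31 at 9.

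Over their whole coding sequences XTH12 and XTH13 were 89.7% identical, XTH17 and XTH18 92.2%, XTH18 and XTH19 89.2%, and XTH31 and XTH32 67.2%. Reads were 50 bases long, so the transcripts of each member were searched for stretches of that length that also lie in another gene. There were none in 27 of the 33 members, XTH12, XTH13, XTH14, XTH25 and XTH31 included. XTH15 shared 28.8% of its 50-base stretches with AT4G14120, a gene that overlaps it, so its counts are uncertain. The shares were 7.15% for XTH21, 1.63% for XTH19, 1.57% for XTH18, 0.265% for XTH26 and 0.167% for XTH17.

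Library totals lay between 18737837 and 20787603 estimated counts. Col-0 stage II replicate 3 had the highest level of its group for 19 of the 26 members tested there, against 38% of all genes tested. ROS1 itself went against its label after imbibition. In mature seeds it had 1219, 1466 and 1466 counts in the libraries labelled ros1-4, against 2578, 2455 and 2547 counts in Col-0 (log2 fold change -0.55). In germinating ros1-4 seeds ROS1 gave 1286, 1256 and 1221 counts at stage II, against 256, 273 and 281 in Col-0, and 1134, 1203 and 1331 at stage IV, against 296, 312 and 252 in Col-0. An insertion need not remove transcript on either side of it, and the table does not say where in the gene the reads lie, so every statement on ros1-4 concerns the libraries labelled ros1-4. For RNA the study calls the replicates biological without saying whether their seeds came from separate mother plants.

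In dry seeds nearly the whole family was 1 transcript. XTH25 made up 98.6% to 98.7% of the family's TPM (a level corrected for transcript length and library size) in mature ros1-4 seeds and 98.0% to 98.1% in mature Col-0 seeds. It averaged 3848 ± 177 TPM in ros1-4 and 2356 ± 75.8 TPM in Col-0 (SD, n = 3 each). The next members in mature ros1-4 seeds were XTH11 at 19.1 ± 3.04 TPM, XTH28 at 17.0 ± 0.108 TPM and XTH27 at 12.6 ± 1.62 TPM. In Col-0 they were XTH28 at 15.6 ± 1.36 TPM, XTH27 at 13.1 ± 0.582 TPM and XTH11 at 10.5 ± 0.837 TPM. XTH5 came after these in both genotypes, at 1.60 ± 0.411 TPM in ros1-4 and 4.00 ± 0.473 TPM in Col-0. Between 13 and 18 of the 33 members had no read in a mature library. XTH11 and XTH28 in ros1-4 lay within 1 SD of XTH11 of each other.

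**Figure D1:**
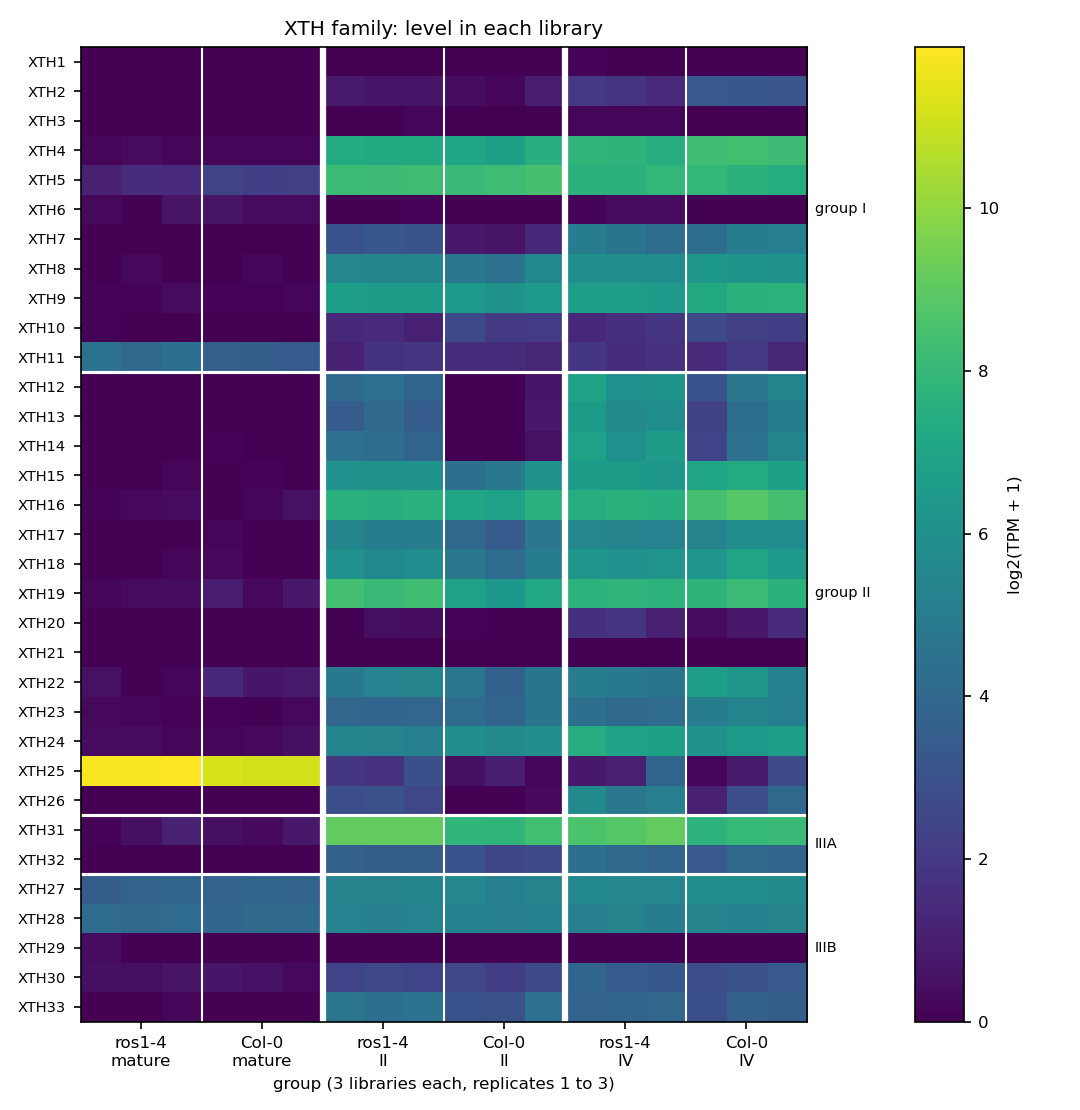
Level of each member in each library, as log2(TPM + 1), with members down the page by family group and libraries across by stage and genotype. XTH25 is the bright row in the 6 mature libraries and nearly dark in the 12 germination libraries, where most other members of groups I, II and IIIA light up.

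The comparison of genotypes in dry seeds asked how the stored transcripts differed before imbibition. Levels by library are given as CPM, which are counts corrected for library size and scaled by TMM over the 18 libraries. XTH25 stood at 6068, 5719 and 6429 CPM in mature ros1-4 seeds, against 3160, 3053 and 2993 CPM in mature Col-0 seeds, so that the lowest ros1-4 library lay 1.81 times above the highest Col-0 library. Its log2 fold change was 1.00 (SE 0.073, adjusted p = 1.46e-07, edgeR quasi-likelihood test with Benjamini-Hochberg adjustment over all genes tested). Scaling by library size alone put the median of all genes at -0.34 and gave 0.67 for XTH25, and one fit over all 18 libraries gave 0.98 with an adjusted p of 0.312, so that the call was lost. Seed reserve transcripts such as cruciferins and oleosins moved with it: 8 of 9 were higher in mature ros1-4 seeds, where 13.8% of all genes tested were higher. The summed level of the 9 was 496300, 439600 and 418900 CPM in ros1-4 and 305800, 315900 and 324300 CPM in Col-0. Endosperm markers summed to 87700, 79340 and 89870 CPM in ros1-4 and 31870, 38440 and 48120 CPM in Col-0, nearly all of it EPR1 (log2 fold change 1.14, adjusted p = 7.58e-06), while the mannanase MAN7 was lower (-1.31, adjusted p = 1.68e-07). The part of either list in the XTH25 result was not tested.

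XTH11, the member without the second glutamate codon, was also higher in mature ros1-4 seeds, at 30.2, 21.0 and 27.7 CPM, against 12.7, 12.3 and 10.9 CPM in Col-0 (log2 fold change 1.15, SE 0.14, adjusted p = 1.66e-05). XTH28 was higher by a smaller margin (log2 fold change 0.42, adjusted p = 0.00491), which scaling by library size alone reduced to 0.09 (adjusted p = 0.496). XTH5 was lower, at 2.34, 3.65 and 3.65 CPM in ros1-4, against 7.47, 6.04 and 6.47 CPM in Col-0 (log2 fold change -1.03, SE 0.22, adjusted p = 0.00246). XTH22, the touch-induced TCH4, was lower too, at 10, 1 and 3 counts in ros1-4, against 33, 14 and 17 counts in Col-0 (log2 fold change -1.84, adjusted p = 0.0286). The groups did not overlap for any of these, but the XTH22 call was lost without ros1-4 replicate 2 or 3 or Col-0 replicate 1 or 3 (adjusted p 0.0538 to 0.178). XTH27 and XTH30 did not pass, with log2 fold changes of 0.23 (adjusted p = 0.14) and 0.31 (adjusted p = 0.689). In all, 5 of the 7 members that passed the filter on low counts were called in mature seeds, 3 higher and 2 lower, where 26.8% of all genes tested were called, 13.8% higher and 13% lower. XTH22 passed that filter through the Col-0 libraries alone, so that its lower call was set by the filter. This call is included in the 5 and in the 2 lower.

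After imbibition XTH25 was nearly gone and many other members appeared. In ros1-4, XTH25 fell to 45, 37 and 110 counts at stage II, against 59771, 59569 and 65184 counts in mature seeds (log2 fold change -11.38, SE 0.28, adjusted p = 3.68e-14). In Col-0 it fell to 6, 15 and 2 counts at stage II, against 39754, 37947 and 37028 counts in mature seeds (log2 fold change -13.24, SE 0.35, adjusted p = 1.05e-09). Stage IV libraries held 11, 17 and 220 counts of it in ros1-4 and 2, 12 and 86 counts in Col-0, with replicate 3 highest in each genotype. XTH11 fell as well, with log2 fold changes at stage II of -4.65 in ros1-4 (adjusted p = 3.61e-11) and -3.60 in Col-0 (adjusted p = 3.84e-08).

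At stage II against mature seeds, 26 of 26 members tested were called in ros1-4, 23 higher and 3 lower (XTH11, XTH25 and XTH28), where 89.7% of all genes tested were called, 50.3% higher and 39.3% lower. In Col-0 21 of 22 were called, 19 higher and 2 lower (XTH11 and XTH25), where the share of all genes was 88.3%, with 47.3% higher and 41% lower. At stage IV against mature seeds 28 of 28 were called in ros1-4, 25 higher and 3 lower, where 88.9% of all genes were called, 50.6% higher and 38.3% lower, and 27 of 27 in Col-0, 25 higher and 2 lower, where 89.7% were called, 49.4% higher and 40.3% lower. Only 7 of these members (XTH5, XTH11, XTH22, XTH25, XTH27, XTH28 and XTH30) also passed the filter on low counts within the mature libraries. The others passed through the germination libraries alone, so that a higher call was set by the filter and nothing is read from these counts. Of the 7, 4 were higher and 3 lower at each stage in ros1-4, and in Col-0 4 were higher, 2 lower and 1 not called at stage II, and 5 higher and 2 lower at stage IV. XTH22, 1 of the 4 higher in ros1-4, passed in mature seeds through the Col-0 libraries alone. In ros1-4 it thus passed through the germination libraries alone, and its higher calls there were set by the filter too. For members with no mature read a fold is only a bound: XTH32 was at least 29.7-fold higher at stage II than in mature ros1-4 seeds, and XTH17 at least 64.6-fold, with a floor of 3 counts a library.

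Among members with reads in mature seeds, XTH5 had 218, 225 and 234 CPM at stage II in ros1-4, against 2.34, 3.65 and 3.65 CPM in mature seeds (log2 fold change 6.12, SE 0.11, adjusted p = 2.3e-15). XTH31 reached 419, 414 and 422 CPM, against 0.203, 0.768 and 2.27 CPM (8.57, SE 0.2). XTH31 passed the filter on low counts through the germination libraries alone, so that its higher call was set by the filter. XTH27, known as EXGT-A3, and XTH28, both of group IIIB and present in dry seeds, moved little: in ros1-4 their stage II log2 fold changes were 0.28 (adjusted p = 0.00834) and -0.26 (adjusted p = 0.00454). The direction of XTH28 turned to 1.10 under scaling by library size alone, which moved the median of all genes to 1.68 in that comparison.

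Members with opposite courses are neighbours. XTH12 (AT5G57530, chromosome 5, 23300321 to 23301689, TAIR10.1), XTH13 (AT5G57540, 23302787 to 23304095), XTH25 (AT5G57550, 23304782 to 23306440) and XTH22 (AT5G57560, 23307006 to 23308680) lie in a row on the minus strand, with 1097, 686 and 565 bases between them. In coding sequence XTH25 was 73.0% identical to XTH22 and 67.5% to XTH13. XTH13 had 0, 0 and 1 counts in mature ros1-4 seeds and 0, 0 and 0 in mature Col-0 seeds. Its stage IV counts were 1564, 857 and 1025 in ros1-4 and 69, 305 and 508 in Col-0. XTH22 had 603, 862 and 898 counts at stage II in ros1-4 and 514, 238 and 497 in Col-0.

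The 250 bases before the annotated starts of XTH25 and XTH13 are shown because these neighbours had opposite courses. Capitals mark ACGTG, the core of the abscisic acid response element, which here lies on the reverse strand and reads CACGT.
XTH25 (chr5:23306441-23306690, minus strand): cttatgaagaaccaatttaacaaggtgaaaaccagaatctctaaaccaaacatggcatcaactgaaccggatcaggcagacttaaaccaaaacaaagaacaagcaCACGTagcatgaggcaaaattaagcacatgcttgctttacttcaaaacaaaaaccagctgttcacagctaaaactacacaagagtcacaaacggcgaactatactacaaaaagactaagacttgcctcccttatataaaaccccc
XTH13 (chr5:23304096-23304345, minus strand): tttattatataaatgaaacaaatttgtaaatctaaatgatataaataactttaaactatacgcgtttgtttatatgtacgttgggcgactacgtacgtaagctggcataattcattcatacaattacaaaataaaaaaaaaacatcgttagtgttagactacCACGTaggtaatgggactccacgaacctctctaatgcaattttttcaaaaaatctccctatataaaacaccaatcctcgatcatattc
ACGTG, searched on both strands, was present once in each of these windows, in the windows of 5 of the 33 members and in 22.9% of those of 27443 genes. CATGCA, the core of the RY element, was present in 4 members and in 8.43% of all windows. RHE, a root hair element, was searched as well and was present in 0 members and in 0.754% of all windows. These matches describe letters only.

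**Figure D2:**
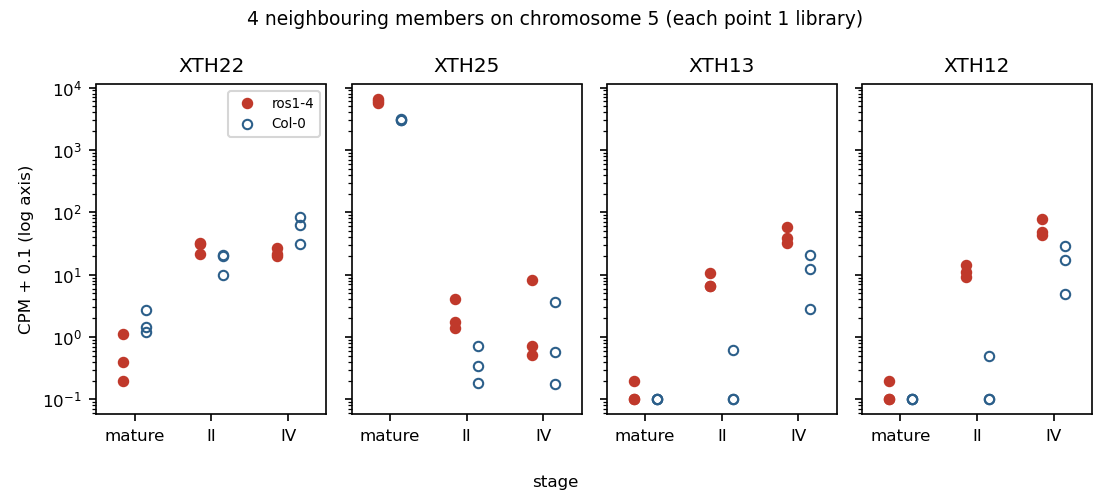
CPM with 0.1 added, on a log axis, of 4 neighbours on chromosome 5 in each library by stage, with ros1-4 as filled red points to the left of Col-0 as open blue points. XTH25 lies at 2993 CPM or more in mature seeds and at 8.21 CPM or less later, while XTH12 and XTH13 are near 0 in mature seeds and highest at stage IV.

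The comparison at stage II asked whether the genotypes differed as the radicle appeared. Of 26 members tested, 11 were higher in ros1-4, 2 were lower and 13 did not pass, where 22.6% of all genes tested were called, 11.4% higher and 11.1% lower. The median log2 fold change of the 26 was 0.72, beside 0 over all genes. XTH12, XTH13, XTH14, XTH25 and XTH26 passed the filter through the ros1-4 libraries alone, so that their higher calls were set by the filter. They are included in the 11, in the median and in the group II counts that follow. In group II 8 of 13 were higher and 1 was lower, in group I 1 was higher and 1 lower among 7, and in group IIIA both were higher. In group IIIB 0 of 4 were called by edgeR or by DESeq2, and 1 (XTH33) had an unadjusted p under 0.05 in edgeR.

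The largest fold changes were those of XTH12, XTH13, XTH14 and XTH26, group II members known from roots. XTH12 had 304, 396 and 255 counts in ros1-4, against 0, 0 and 10 counts in Col-0 (log2 fold change 6.35, SE 0.55, adjusted p = 0.000313). XTH13 had 179, 290 and 184 counts, against 0, 0 and 13 (5.43, SE 0.64, adjusted p = 0.00109). Neither of these close copies shares a 50-base stretch with another gene. XTH14 had 412, 367 and 267 counts, against 1, 0 and 8 (6.63, SE 0.47, adjusted p = 0.000142). XTH26 had 120, 134 and 92 counts, against 0, 0 and 4 (6.14, SE 0.54, adjusted p = 0.000336).

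Every ros1-4 library lay above every Col-0 library for these 4 genes, and the nearest libraries differed by 22.8-fold in XTH12, 12.3-fold in XTH13, 29.8-fold in XTH14 and 20.5-fold in XTH26. Nearly all Col-0 reads of the 4 genes were in replicate 3. Against Col-0 replicates 1 and 2, where XTH12, XTH13 and XTH26 had no read, ros1-4 was at least 93.3-fold higher for XTH12, 63.8-fold for XTH13 and 33.8-fold for XTH26, with the floor of 3 counts a library. The 4 calls held with each of the 6 libraries left out, but they were set by the filter on low counts, so nothing is read from this. Root hair markers moved with these genes: 9 of 10 were higher in ros1-4, where 11.4% of all genes tested were higher. Of the 10, 4 did not pass the filter on low counts between Col-0 stage II and mature seeds. They passed here through the ros1-4 libraries alone, so that a higher call was set by the filter. The 9 included the expansin EXPA7 (log2 fold change 6.08, adjusted p = 0.000187) and the regulator RSL4 (2.62, adjusted p = 0.000189), and RHD6 did not pass (0.26, adjusted p = 0.145). The summed level of the 10 was 243.8, 278.3 and 214.2 CPM in ros1-4 and 26.7, 29.4 and 53.5 CPM in Col-0, with replicate 3 highest in Col-0 again. Their part in the XTH result was not tested, and in whole seeds fewer cells of a type and less RNA per cell cannot be told apart.

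**Figure D3:**
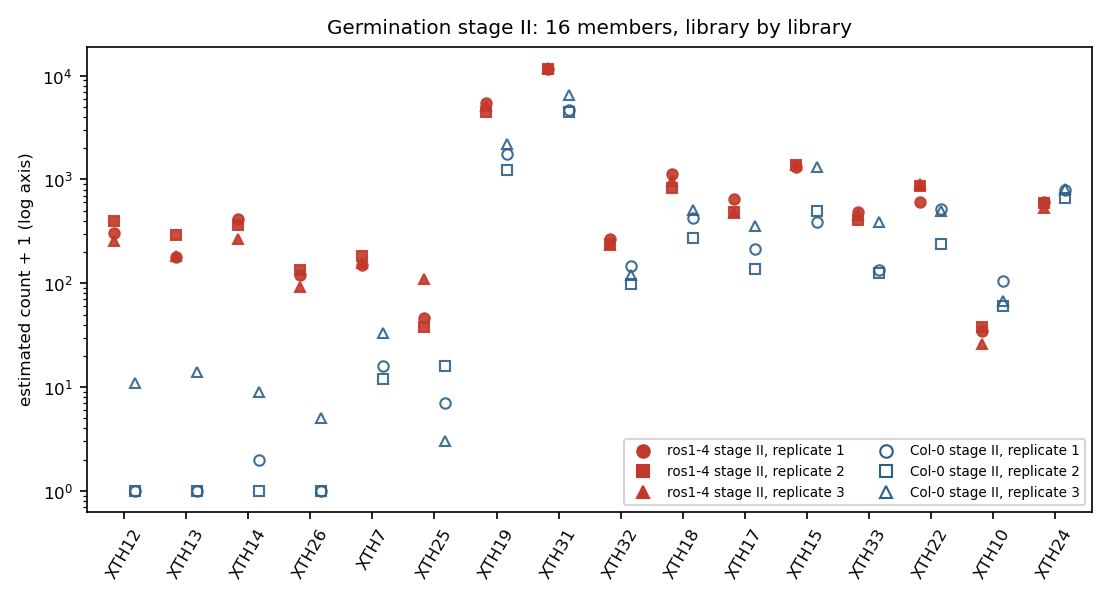
Estimated counts with 1 added, on a log axis, of 16 members in the 6 stage II libraries: the 13 called and XTH15, XTH33 and XTH22, which were chosen after their values were seen. Filled red marks are ros1-4 and open blue marks Col-0, with circles, squares and triangles for replicates 1, 2 and 3, and the Col-0 triangle stands apart for XTH12, XTH13, XTH14 and XTH26 and lies with ros1-4 for XTH15.

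XTH7, a group I member, had 5.34, 6.54 and 5.58 CPM in ros1-4, against 0.597, 0.458 and 1.28 CPM in Col-0 (log2 fold change 2.89, SE 0.3, adjusted p = 0.000637). Of XTH17, XTH18 and XTH19, close relatives known from roots, XTH19 was the most abundant, at 194, 161 and 183 CPM in ros1-4, against 69.7, 51.5 and 87.0 CPM in Col-0 (1.37, SE 0.17, adjusted p = 0.00139). XTH18 had 40.8, 29.4 and 34.5 CPM, against 17.0, 11.4 and 20.3 CPM (1.10, SE 0.2, adjusted p = 0.00688). Groups did not overlap for these 3 genes or for XTH17, which had 22.9, 17.4 and 17.1 CPM, against 8.43, 5.70 and 14.4 CPM (1.00, adjusted p = 0.0408). The XTH17 call was lost without any single library other than Col-0 replicate 3 (adjusted p 0.0748 to 0.146).

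XTH31, of the hydrolase group, was the most abundant member at stage II in ros1-4, with 553 ± 6.86 TPM, and came after XTH5 in Col-0, with 264 ± 54.9 TPM (SD, n = 3 each). It had 419, 414 and 422 CPM in ros1-4, against 184, 187 and 258 CPM in Col-0 (log2 fold change 0.99, SE 0.12, adjusted p = 0.00135). XTH32 had 9.50, 8.58 and 8.34 CPM, against 5.85, 4.04 and 4.81 CPM (0.84, SE 0.14, adjusted p = 0.00476), again with no overlap. Together they held 27.0% ± 0.39 of the family's TPM in ros1-4 and 19.6% ± 0.81 in Col-0 (SD, n = 3 each). In ros1-4 XTH19 (307 ± 29.9 TPM) and XTH5 (298 ± 9.30 TPM) came next and lay within 1 SD of each other, as did XTH5 (314 ± 39.2 TPM) and XTH31 in Col-0.

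XTH25 was higher in ros1-4 at stage II too, at 1.61, 1.32 and 3.94 CPM, against 0.239, 0.624 and 0.080 CPM in Col-0 (log2 fold change 2.86, SE 0.64, adjusted p = 0.0167). The call did not hold without ros1-4 replicate 3 (adjusted p = 0.0542) or Col-0 replicate 1 (0.0554), nor in one fit over all 18 libraries (0.0998). Of the 9 seed reserve markers 6 were higher, where 11.4% of all genes tested were higher. The 9 summed to 1370, 1454 and 2021 CPM in ros1-4 and 273.6, 380.3 and 261.3 CPM in Col-0. Endosperm markers summed to 2480, 2339 and 2492 CPM in ros1-4 and 1063, 1831 and 1579 CPM in Col-0. The part of either list was not tested.

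Lower in ros1-4 were XTH10 and XTH24. XTH10 had 1.22, 1.32 and 0.895 CPM in ros1-4, against 4.14, 2.46 and 2.65 CPM in Col-0 (log2 fold change -1.43, SE 0.26, adjusted p = 0.00722). XTH24, first described as the meristem gene MERI5, had 21.5, 21.0 and 18.8 CPM, against 31.5, 27.6 and 32.2 CPM (-0.58, SE 0.084, adjusted p = 0.0027). The abundant XTH5 did not pass (-0.15, adjusted p = 0.269), nor did XTH4 (0.09, adjusted p = 0.737), XTH9 (0.17, adjusted p = 0.274) or XTH16 (0.28, adjusted p = 0.281).

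Col-0 replicate 3 decided 7 further members. XTH15 had 46.7, 48.9 and 49.0 CPM in ros1-4, against 15.4, 20.6 and 52.8 CPM in Col-0, and XTH33 had 17.4, 14.5 and 16.2 CPM, against 5.29, 5.20 and 15.4 CPM, so that replicate 3 lay with ros1-4. Without it 20 members were called, 18 of them higher, and XTH4, XTH8, XTH9, XTH15, XTH16, XTH22 and XTH33 were those added (adjusted p 5.12e-07 to 0.0149). Over all genes 6934 of 18735 were called without it and 4182 of 18521 with it.

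**Figure D4:**
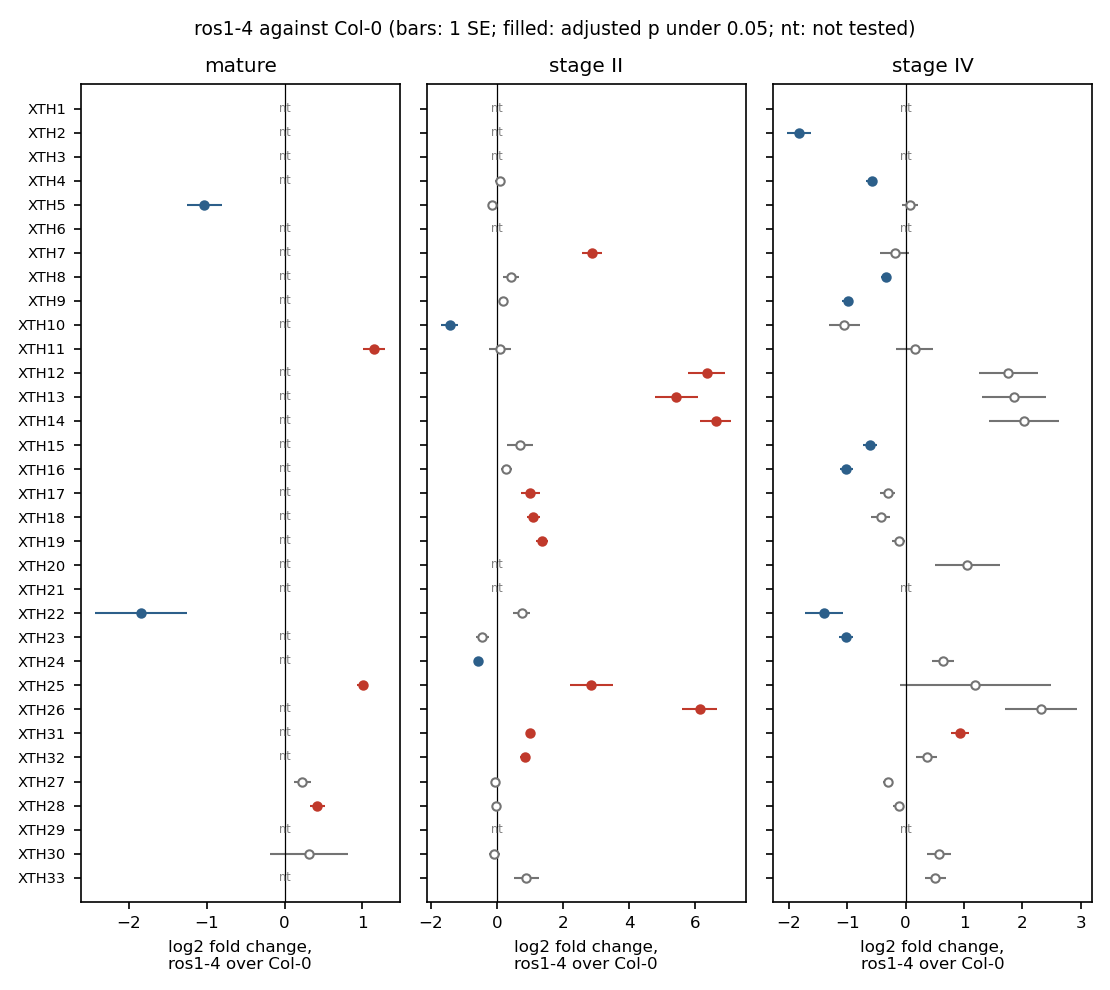
Log2 fold change of ros1-4 over Col-0 for each member in mature seeds and at stages II and IV, with bars of 1 SE, filled points for adjusted p under 0.05 (red higher, blue lower) and nt where a member did not pass the filter on low counts. The 3 panels have scales of their own, and called members number 3 higher and 2 lower in mature seeds, 11 and 2 at stage II and 1 and 8 at stage IV.

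At stage IV, scored at the same radicle length in both genotypes, 9 of 28 members tested were called, 1 higher and 8 lower in ros1-4, where 8.22% of all genes tested were called, 3.72% higher and 4.5% lower. The median log2 fold change of the 28 was -0.12, beside 0.01 over all genes. XTH16, the most abundant member in Col-0 at this stage, with 189 ± 14.7 TPM in ros1-4 and 384 ± 60.5 TPM in Col-0, had 96.4, 111 and 105 CPM in ros1-4, against 198, 246 and 191 CPM in Col-0 (log2 fold change -1.02, SE 0.11, adjusted p = 0.00322). XTH9, known from shoot tips, had 69.7, 70.4 and 65.1 CPM, against 116, 150.2 and 145 CPM (-0.99, SE 0.1, adjusted p = 0.00318). XTH23 had 17.0, 13.0 and 14.6 CPM, against 27.9, 34.1 and 29.0 CPM (-1.02, SE 0.12, adjusted p = 0.0044). No ros1-4 library reached the lowest Col-0 library in these genes or in XTH2, which had 1.47, 1.22 and 0.896 CPM, against 4.51, 4.20 and 4.09 CPM (-1.83, SE 0.2, adjusted p = 0.0039). The 4 calls held with each of the 6 libraries left out.

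XTH4 had 148, 142 and 117 CPM in ros1-4, against 206, 212 and 192 CPM in Col-0 (log2 fold change -0.58, SE 0.094, adjusted p = 0.0132). XTH15 (-0.62, adjusted p = 0.0207), XTH22 (-1.40, adjusted p = 0.0365) and XTH8 (-0.33, adjusted p = 0.0445) were lower too. The 1 member higher at stage IV was XTH31, at 296, 347 and 429 CPM in ros1-4, against 165, 195 and 206 CPM in Col-0 (0.93, SE 0.15, adjusted p = 0.012). Without ros1-4 replicate 2, XTH4 and XTH31 missed the threshold (adjusted p 0.0533 and 0.0533), as did XTH4 without Col-0 replicate 2 (0.0524). XTH15 and XTH22 missed it without any ros1-4 replicate or without Col-0 replicate 2 (adjusted p 0.0532 to 0.126), and XTH8 without any single library (0.055 to 0.129).

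XTH12, XTH13, XTH14 and XTH26 lay above Col-0 in every ros1-4 library at stage IV but were not called. XTH12 had 78.3, 42.7 and 49.1 CPM in ros1-4, against 4.79, 17.3 and 28.2 CPM in Col-0 (log2 fold change 1.76, SE 0.51, adjusted p = 0.0723). XTH13 gave 1.85 (adjusted p = 0.0779), XTH14 2.02 (adjusted p = 0.0761) and XTH26 2.32 (adjusted p = 0.0571). Without Col-0 replicate 1, which was lowest for each, the 4 passed (adjusted p 0.0267 to 0.0317). In that fit 13 members were called in all, where 8.55% of all genes were called. The 4 passed without Col-0 replicate 3 as well (0.0152 to 0.0335). In one fit over all 18 libraries the 4 passed (adjusted p 0.00917 to 0.0148), and 14 members were called, 6 higher and 8 lower, where 13.3% of all genes were called. The root hair markers summed to 1147, 662 and 886 CPM in ros1-4 and 199, 416 and 519 CPM in Col-0, lowest in the same replicate 1. By edgeR 0 of 10 were called, where 8.22% of all genes were, and 7 had an unadjusted p under 0.05. The share of all genes under that unadjusted threshold was not counted, here or for the other lists. Their part was not tested.

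Between stages II and IV the 2 genotypes were compared each with itself. In ros1-4 18 of 28 members tested were called at stage IV against stage II, 15 higher and 3 lower, where 39.9% of all genes tested were called (20.7% higher, 19.2% lower), and the median log2 fold change of the members was 0.36, beside -0.01 over all genes. In Col-0 21 of 27 were called, 20 higher and 1 lower, where 38.7% of all genes were called (21.8% higher, 16.8% lower), and the median was 1.18. XTH2 and XTH20 in ros1-4 passed the filter on low counts through the stage IV libraries alone. In Col-0 the same held for XTH2, XTH12, XTH13, XTH14 and XTH26. Their higher calls were set by the filter, and these members enter the counts and medians above. XTH12 had 78.3, 42.7 and 49.1 CPM at stage IV in ros1-4, against 10.9, 14.2 and 9.13 CPM at stage II (log2 fold change 2.27, SE 0.22, adjusted p = 8.7e-05), and in Col-0 the log2 fold change was 6.90 (SE 1, adjusted p = 0.00308). XTH5 was lower at stage IV in both, with -0.48 (adjusted p = 0.00167) in ros1-4 and -0.65 (adjusted p = 0.0139) in Col-0. XTH24 had 92.9, 61.8 and 59.6 CPM at stage IV in ros1-4, against 21.5, 21.0 and 18.8 CPM at stage II (1.76, SE 0.15), and gave 0.60 (SE 0.14) in Col-0. XTH20, a relative of XTH17 to XTH19, had 48, 59 and 26 counts at stage IV in ros1-4, against 1, 9 and 7 counts at stage II (2.96, SE 0.49, adjusted p = 0.00149). In Col-0 it had 6, 16 and 37 counts at stage IV, and the genotypes did not pass there (1.05, adjusted p = 0.272).

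**Figure D5:**
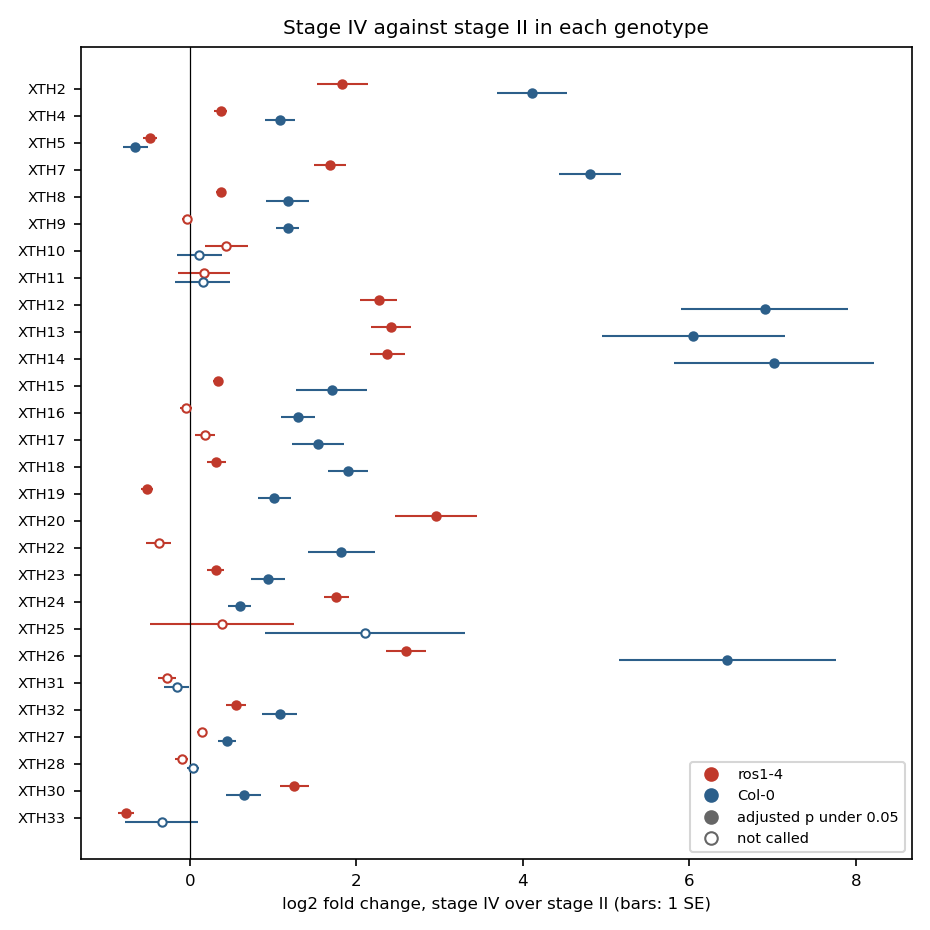
Log2 fold change of stage IV over stage II for the members tested, with ros1-4 in red above Col-0 in blue for each, bars of 1 SE and filled points for adjusted p under 0.05. Most blue points lie to the right of the red ones, and XTH19 lies left of 0 in ros1-4 (-0.51) and right of it in Col-0 (1.02).

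The difference itself was tested as the interaction of genotype with stage, IV against II. It called 7 of 28 members, 6 with a lower change in ros1-4 than in Col-0 and 1, XTH24, with a higher one, where 3.46% of all genes tested were called, 1.06% higher and 2.4% lower. XTH19 fell in ros1-4 to 126, 132 and 129.8 CPM at stage IV, against 194, 161 and 183 CPM at stage II (-0.51, SE 0.07, adjusted p = 0.000507). In Col-0 it rose to 134, 166 and 122 CPM, against 69.7, 51.5 and 87.0 CPM (1.02, SE 0.2, adjusted p = 0.00754), and the interaction was -1.51 (SE 0.23, adjusted p = 0.00895). XTH7 gave -3.10 (SE 0.45, adjusted p = 0.00895) and XTH9 -1.19 (SE 0.16, adjusted p = 0.00753). For XTH12 (-4.61, adjusted p = 0.0564), XTH13 (-3.61, adjusted p = 0.127), XTH14 (-4.63, adjusted p = 0.0833) and XTH26 (-3.84, adjusted p = 0.2) it did not pass. The count moved to 15 without Col-0 stage II replicate 3, 13 without Col-0 stage IV replicate 1, 3 without ros1-4 stage II replicate 1 and 4 without ros1-4 stage II replicate 3. Over all genes 668 were called, against 2616, 1387, 109 and 152 in the same order of libraries left out. The interaction for stage II against mature seeds called 6 of 26 members, 4 positive and 2 negative, where 19.7% of all genes were called, 10.4% positive and 9.24% negative. That count was 2 or 3 without any one of ros1-4 mature replicates 1, 2 and 3, Col-0 mature replicates 1 and 3, ros1-4 stage II replicate 3 and Col-0 stage II replicate 1. Of all genes 15.1% to 18.8% were called with these libraries left out in turn.

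The family's total was 3901 ± 180 TPM in mature ros1-4 seeds and 2403 ± 75.9 TPM in mature Col-0 seeds, 2085 ± 56.0 TPM at stage II in ros1-4 and 1382 ± 284 TPM in Col-0, and 2283 ± 81.6 TPM at stage IV in ros1-4 and 2381 ± 219 TPM in Col-0 (SD, n = 3 each). At stage IV group IIIA held 21.2% ± 3.81 of it in ros1-4 and 10.9% ± 1.2 in Col-0, group I 26.9% ± 1.18 in ros1-4 and 34.9% ± 2.32 in Col-0, and group II 47.1% ± 3.61 in ros1-4 and 49.4% ± 2.50 in Col-0. XTH1, XTH21, XTH3 and XTH29 had at most 6 counts in any of the 18 libraries, and XTH6 at most 11.

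Of the enzymes that make xyloglucan, 3 of the 12 tested in mature seeds were higher in ros1-4 and 1 was lower, where 26.8% of all genes were called. At stage II 1 of 14 was called, where 22.6% of all genes were, CSLC12, a synthase of the glucan backbone, at 10.9, 11.9 and 10.1 CPM in ros1-4, against 3.66, 3.70 and 5.77 CPM in Col-0 (log2 fold change 1.32, adjusted p = 0.00187). At stage IV 0 of 14 were called by edgeR, where 8.22% of all genes were, and 3 had an unadjusted p under 0.05. The galactosyltransferase gene XLT2 was highest in dry seeds, like XTH25: in ros1-4 it had 108 ± 16.8 CPM in mature seeds, 6.27 ± 0.809 CPM at stage II and 6.25 ± 0.823 CPM at stage IV (SD, n = 3 each), and the fitted change between the first 2 was -4.11 on the log2 scale (adjusted p = 1.24e-13).

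The exoglycosidases that trim xyloglucan side chains were all called in dry seeds, 4 of 5 lower in ros1-4 and 1 higher, where 13% of all genes were lower and 13.8% higher. The alpha-xylosidase XYL1 had 23.9, 21.5 and 29.2 CPM in mature ros1-4 seeds, against 62.3, 66.9 and 65.1 CPM in mature Col-0 seeds (log2 fold change -1.36, adjusted p = 1.31e-07). The beta-galactosidase BGAL10 had 3.45, 4.32 and 6.51 CPM, against 19.0, 16.1 and 19.8 CPM (-1.92, adjusted p = 1.55e-06). The exception was the beta-glucosidase BGLC3, at 87.8, 89.2 and 83.2 CPM, against 74.3, 64.0 and 72.4 CPM (0.33, adjusted p = 0.00557). At stage II 2 of the 5 were higher and 1 lower, where 22.6% of all genes were called, and XYL1 did not pass (0.03, adjusted p = 0.771). At both germination stages against mature seeds 4 of the 5 rose and BGLC3 fell, in each genotype, where 50.3% (stage II) and 50.6% (stage IV) of all genes rose in ros1-4 and 47.3% and 49.4% in Col-0.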

How the data were processed

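Seeds of Arabidopsis thaliana were profiled by RNA-seq (50-base single-end reads) in 18 libraries, 6 groups of 3. Per the labels and the study's methods, the authors estimated transcript abundance with Salmon against Araport11 transcripts, and the deposited values are estimated counts per transcript with an effective length. For the present report 48268 transcripts were summed to 27587 genes and rounded. CPM were scaled by TMM over the 18 libraries, and TPM were computed from counts and effective lengths. Each comparison was fitted with edgeR 4.0.16 (R 4.3.3, filterByExpr, TMM, quasi-likelihood test, two-sided) on its own libraries, with no replicate block. Benjamini-Hochberg adjustment ran over all genes tested, and calls were made at 0.05. The study's own tool, DESeq2 1.42.0, served as an alternative, with other scalings, no filter, all 18 libraries in one fit, a replicate block, a fold threshold and each library left out. The fit was tested on simulated data. No 2 replicates agreed within sampling noise. Library totals were 18737837 to 20787603 estimated counts, and intervals and floors cover counting error only.

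All 33 members were to be named, with ROS1 and, from lists of xyloglucan synthesis, side-chain trimming, root hair, seed reserve and endosperm genes, those with the largest changes or a call unlike their list. The members and lists were chosen with earlier results of these data known. Endosperm markers gave 1 higher and 1 lower of 3 tested in mature seeds and at stage II, where 26.8% and 22.6% of all genes were called. Replicate numbers did not pair the libraries. Sequences and coordinates come from RefSeq TAIR10.1.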

Additional observations from a re-analysis of the deposited data

Results flagged for a closer look

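The change between stages differed between genotypes, by a test of the interaction itself (ros1-4 change minus Col-0 change, log2, edgeR quasi-likelihood test), in 13 cases. For stage II against mature seeds 6 of 26 members were called, where 19.7% of all genes were. XTH5 gave 0.87 (adjusted p = 0.00863), XTH19 2.42 (adjusted p = 0.0411), XTH22 2.59 (adjusted p = 0.0348) and XTH25 1.84 (adjusted p = 0.0392). In mature seeds XTH19 did not pass the filter on low counts, and XTH22 passed it through the Col-0 libraries alone. The values of XTH19 and XTH22 therefore rest on few mature reads. In the same comparison XTH11 gave -1.08 (adjusted p = 0.0431) and XTH28 -0.47 (adjusted p = 0.00802). XTH25 fell in both genotypes, so its positive value marks a smaller fall in ros1-4. With each of 12 libraries left out, XTH5 and XTH28 were called 12 times, XTH22 6 times and XTH11, XTH19 and XTH25 4 times each, and XTH25 also missed the threshold in DESeq2 (0.115), with the replicate block (0.055) and in one fit over all 18 libraries (0.398).

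For stage IV against stage II 7 of 28 members were called, where 3.46% of all genes were. XTH7 gave -3.10 (adjusted p = 0.00895), XTH9 -1.19 (adjusted p = 0.00753), XTH16 -1.32 (adjusted p = 0.0161) and XTH18 -1.55 (adjusted p = 0.0191). XTH19 gave -1.51 (adjusted p = 0.00895) and XTH22 -2.17 (adjusted p = 0.0321). XTH24 was the 1 member with a larger change in ros1-4, at 1.18 (adjusted p = 0.0218). The stage II libraries enter both interactions, so the opposite signs of XTH19 and XTH22 in them are not independent.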

How the results depend on the processing

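Under scaling by library size alone XTH28 in ros1-4 reversed to 1.10 at stage II and 0.98 at stage IV against mature seeds, and without ros1-4 stage IV replicate 3 XTH25 in ros1-4, stage IV against II, reversed to -2.17 (adjusted p = 0.00549), within a range of -2.17 to 1.03 over the libraries left out. In one fit over all 18 libraries the members called numbered 3 in mature seeds, 14 at stage IV (6 higher and 8 lower), 3 for the interaction at stage II against mature seeds and 12 for that at stage IV against II. Of all genes that fit called 20.7%, 13.3%, 18.7% and 4.9% in the same order. DESeq2 gave 12 members for the interaction at stage IV against II, where it called 6.56% of all genes. A log2 fold change of at least 1 left 4 members at stage IV (2.43% of all genes) and 9 in ros1-4 at stage IV against II (7.35%). The cause was not tested. No other reversal occurred among the alternatives run.

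With each library left out in turn, the members called between genotypes numbered 4 to 5 (mature), 11 to 20 (stage II) and 4 to 13 (stage IV). The shares of all genes called were 18.9% to 27.6%, 11.5% to 37% and 1.51% to 8.55%. Against mature ros1-4 seeds the members called numbered 25 to 26 (stage II) and 28 to 28 (stage IV), and against mature Col-0 seeds 21 to 21 (stage II) and 26 to 27 (stage IV). The shares of all genes were 87.2% to 88.9% and 86.5% to 87.6% in ros1-4, and 85.8% to 88.6% and 87.5% to 89.4% in Col-0. For stage IV against II the members called numbered 16 to 19 in ros1-4 and 17 to 22 in Col-0, beside 26.6% to 46.1% and 23.4% to 40.8% of all genes. For the interactions they numbered 2 to 6 (stage II against mature) and 3 to 15 (stage IV against II), beside 15.1% to 23.7% and 0.559% to 13.4% of all genes. The stage II count between genotypes was 20 without Col-0 replicate 3, where 37% of all genes were called. The stage IV count was 4 without ros1-4 replicate 2, 5 without Col-0 replicate 2 and 13 without Col-0 replicate 1. Of all genes 1.51%, 2.47% and 8.55% were called in the same order. The first interaction was 2 or 3 without ros1-4 mature replicate 1, 2 or 3, Col-0 mature replicate 1 or 3, ros1-4 stage II replicate 3 or Col-0 stage II replicate 1.

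Replicate numbers did not pair the libraries (correlations of same-numbered deviations -0.13 to 0.14, and not every library correlated best with its own number). With the replicate block the members called between genotypes numbered 5 (mature), 11 (stage II) and 8 (stage IV), where 23.3%, 16.6% and 3.69% of all genes were called. Over all comparisons the block lost 7 single calls and gained 1.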
